A study of Mus musculus with 46 samples.

Results

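In microglia sorted as Ki67-positive, 903 of 26962 H3K27ac regions were marked in every Ki67-positive library and in no adult library. The 26962 regions are those the authors listed for replicate 1 of Ki67-positive cells at postnatal day 8 (PND8). A region was taken if it overlapped, by at least 1 bp, a region in each of the other 5 Ki67-positive lists and none in the 2 adult lists. Those other lists are the second PND8 replicate, 2 from mice fed cuprizone and 2 from mice recovering from PLX5622. Of the 903 regions, 242 lay within 1 kb of a transcription start site (TSS) of the gene count table and are called gained promoters. The remaining 661 are called gained distal regions. The regions were chosen by the authors' H3K27ac calls in those 8 lists, so presence or absence there is the rule and not a finding. Coordinates are mm10 throughout.

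All cells were microglia, brain macrophages, of male C57BL/6 mice, and the study compared cells at rest with cells in settings where microglia divide. All cells were isolated on ice with sodium butyrate and flavopiridol, and the sort used CD11b, CD45 and CD44. Cells for H3K27ac came from wild-type mice and were sorted after fixation by antibody staining of Ki67, with 2 libraries per group. The adult H3K27ac groups were 60 and 65 days old with no treatment in the labels, although their file headers carry the word vehicle. PND8 mice were 8 days old, and their cells were sorted as Ki67-positive or Ki67-negative. Cuprizone mice were 90 days old after 4 weeks of a diet that damages myelin, and were sorted the same way. Recovery mice were 90 days old and had eaten PLX5622, an inhibitor of the receptor CSF1R that removes microglia, for 17 days from day 70, followed by 3 days without it. These ages are those of the labels, while the names of the deposited Recovery lists give day 80. Only Ki67-positive cells were taken from Recovery mice for H3K27ac. RNA came from untreated wild-type adults of 90 days, and from Ki67-rfp reporter mice at PND8 or at 75 days, the latter after 17 days of PLX5622 from day 55 and 3 days of recovery. Each RNA group had 2 libraries. The reporter genotype therefore cannot be told apart from the contrast with adult in RNA, and no RNA of cuprizone mice was analysed here. The adult RNA samples are labelled Ki67-negative. Lists for the polymerase subunit Rpb2 came from adults of 60 and 65 days and from 1 PND8 Ki67-positive sample. H3K4me3 lists came from 2 adult samples of 75 days. ATAC-seq lists, which mark open chromatin, came from 1 adult of 80 days, 1 PND8 Ki67-positive and 1 Recovery Ki67-positive sample. The Recovery ATAC-seq mouse was 75 days old by its label, with PLX5622 from day 55 for 17 days and 3 days of recovery. Titles of both Ki67-positive ATAC-seq samples name the Ki67-rfp reporter, although their genotype label is wild type.

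H3K27ac is the acetyl mark found on nucleosomes beside active promoters and enhancers. H3K4me3 marks promoters that are active or ready for use, and Rpb2 is the second largest subunit of RNA polymerase II, so its presence marks the transcribing enzyme. Ki67, encoded by Mki67, is present in cells that are in the cell cycle and is lost when cells rest. Genes of DNA replication peak in S phase and are switched on largely by E2F factors, whereas genes of mitosis peak in G2 and M phase. The promoters of the latter often carry CCAAT boxes, bound by NF-Y, and a CHR element with the letters TTTGAA, bound by the MuvB complexes that hold them silent in resting cells.

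The gained promoters included 7 of 44 listed S phase genes and 10 of 55 listed G2/M genes. The bases just before the start of 9 of these genes are shown because the cell cycle genes carry the strongest RNA differences below, and that of Axl is shown beside them as a gained promoter of a gene with another role. They were chosen after values were seen. Each sequence is the 150 bases before the RefSeq start site (GRCm38.p6), 5′ to 3′ on the gene's strand. Capitals mark the CCAAT box, the CHR letters TTTGAA and the E2F-type octamers TTTGGCGC, TTTCCCGC and TTTCGCGC on either strand, so that a match on the other strand appears as its reverse complement.
Cdk1: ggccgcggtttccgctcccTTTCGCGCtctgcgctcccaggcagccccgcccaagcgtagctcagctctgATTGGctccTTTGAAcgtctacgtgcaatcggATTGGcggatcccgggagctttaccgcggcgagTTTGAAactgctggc
Ccnb2: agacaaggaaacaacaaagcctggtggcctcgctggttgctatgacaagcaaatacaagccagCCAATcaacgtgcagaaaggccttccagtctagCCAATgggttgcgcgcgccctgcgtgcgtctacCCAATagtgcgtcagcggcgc
Mki67: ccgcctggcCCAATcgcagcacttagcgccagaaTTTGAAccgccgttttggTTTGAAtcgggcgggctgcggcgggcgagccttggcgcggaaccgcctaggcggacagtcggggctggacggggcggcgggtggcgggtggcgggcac
Ube2c: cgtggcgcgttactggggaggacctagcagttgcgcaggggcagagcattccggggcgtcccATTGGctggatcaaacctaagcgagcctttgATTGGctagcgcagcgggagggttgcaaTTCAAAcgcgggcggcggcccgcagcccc
Bub1: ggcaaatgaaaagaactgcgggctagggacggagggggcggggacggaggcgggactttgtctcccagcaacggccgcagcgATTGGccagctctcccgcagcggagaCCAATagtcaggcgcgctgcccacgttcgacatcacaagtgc
Nek2: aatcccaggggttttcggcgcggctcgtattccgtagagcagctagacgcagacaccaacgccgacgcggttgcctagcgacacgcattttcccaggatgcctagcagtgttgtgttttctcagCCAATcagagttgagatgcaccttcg
Mcm6: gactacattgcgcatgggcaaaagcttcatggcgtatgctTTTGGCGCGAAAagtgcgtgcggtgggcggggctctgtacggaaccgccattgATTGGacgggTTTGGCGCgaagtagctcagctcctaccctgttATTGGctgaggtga
Mcm2: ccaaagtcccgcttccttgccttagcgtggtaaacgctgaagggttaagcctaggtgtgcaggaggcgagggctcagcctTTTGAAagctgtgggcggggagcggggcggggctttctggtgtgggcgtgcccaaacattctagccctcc
Uhrf1: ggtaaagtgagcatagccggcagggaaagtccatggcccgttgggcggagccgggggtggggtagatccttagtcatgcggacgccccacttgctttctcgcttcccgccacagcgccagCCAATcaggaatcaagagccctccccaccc
Axl: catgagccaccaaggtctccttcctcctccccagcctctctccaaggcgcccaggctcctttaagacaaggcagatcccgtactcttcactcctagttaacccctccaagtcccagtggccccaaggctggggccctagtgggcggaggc

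Among the 10 G2/M genes with a gained promoter, 8 had a RefSeq promoter that matched the count table's start. All 8 held CCAAT in the 150 bases, and 4 held TTTGAA. Only 1 of the 8 held any of the 3 octamers. Among the 15982 matched promoters of all genes, 4322 held CCAAT, 7.12% held TTTGAA and 1.45% held an octamer. Of the 6 matched S phase genes out of 7, 4 held CCAAT, 2 held TTTGAA and 1, Mcm6, held an octamer. The octamers TTTGGCGC and TTTCGCGC overlap at the first site of Mcm6, where they are read from opposite strands. Axl held none of these letters in this window. Over all genes at gained promoters only 195 of 261 were matched, which is 74.7% and too few for a comparison of shares. A match here is a description of the letters in the window.

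The gained regions were weak to middling within the list that defined them. Their median percentile by the authors' tag value, which is the tags of a region normalised to a fixed total per library, was 26.0 in the PND8 replicate 1 list. It was 33.9 for gained promoters and 22.8 for gained distal regions. Regions just outside the rule ranked lower still. The 948 regions absent from adult and present in 4 of the other 5 lists had a median percentile of 17.5, and 35 regions that touched an adult region by under 200 bp had 12.9. Of the 948, 476 were missing only from Cuprizone replicate 1 and 295 only from Recovery replicate 2. Gained regions had a median width of 957 bp, with a range of 500 to 3493 bp. The tag value belongs to the whole region of a list, and 6 to 18 gained regions shared 1 region with another gained region in each of the other 5 lists.

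The number of gained regions depended on single libraries, and most on adult replicate 2. Adult replicate 1 had 19572 regions with 32.60% of its tags in them, against 24903 regions and 58.31% in adult replicate 2. The 10 lists of sorted cells had 24082 to 30539 regions and 45.47% to 69.66% of tags in them. Total tags were 15233543 to 22888521 per H3K27ac library. Without adult replicate 2, 3067 regions met the rule, and without adult replicate 1, 1098 did. Without Cuprizone Ki67-positive replicate 1 the number was 1379, and without Recovery replicate 2 it was 1198. In all 6 Ki67-positive lists, 2359 regions were in 1 of the 2 adult lists and 15880 in both. An adult region lay within 1 kb of 69 gained regions (7.64%), of which 66 were distal. The median distance to the nearest adult region was 12.5 kb, with quartiles of 4.60 and 38.7 kb. Numeric codes in the file headers, which nothing explains, gave adult replicate 1 a code of its own and adult replicate 2 that of both PND8 replicate 2 libraries and Recovery replicate 1.

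Most gained regions were also marked in Ki67-negative cells, whose lists the rule did not use. At PND8, 677 (75.0%) overlapped a region of the Ki67-negative replicate 1 list and 759 (84.1%) one of replicate 2. In cuprizone, 476 (52.7%) did so in replicate 1 and 795 (88.0%) in replicate 2, so the 2 replicates of this group lay far apart. Replicate 1 was the shorter of these lists, with 24082 regions against 30539. All 4 Ki67-negative lists held 345 gained regions (38.2%), and none held 27 (2.99%). Of all 26962 regions, 73.6% were in all 4 lists and 3.30% in none, and the 4 lists held 89.0% and 91.8% of them at PND8 and 77.9% and 90.3% in cuprizone. Of the 3713 regions absent from adult and present in some but not all Ki67-positive lists, 9.24% were in all 4 Ki67-negative lists and 21.7% in none. Gained promoters were found in 85.5% and 92.1% of cases in the PND8 Ki67-negative lists, against 40.9% and 83.5% in cuprizone. Over all 9349 promoter regions of the first list the shares were 96.5% and 97.8% at PND8 and 87.0% and 96.7% in cuprizone. Gained distal regions were found in 71.1% and 81.1% of cases at PND8, and in 377 of 661 cases and 89.7% in cuprizone. Over all 17613 distal regions the shares were 85.0% and 88.7% at PND8 and 73.2% and 86.9% in cuprizone. The plot of shares in the other lists shows these values.

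**Figure D1:**
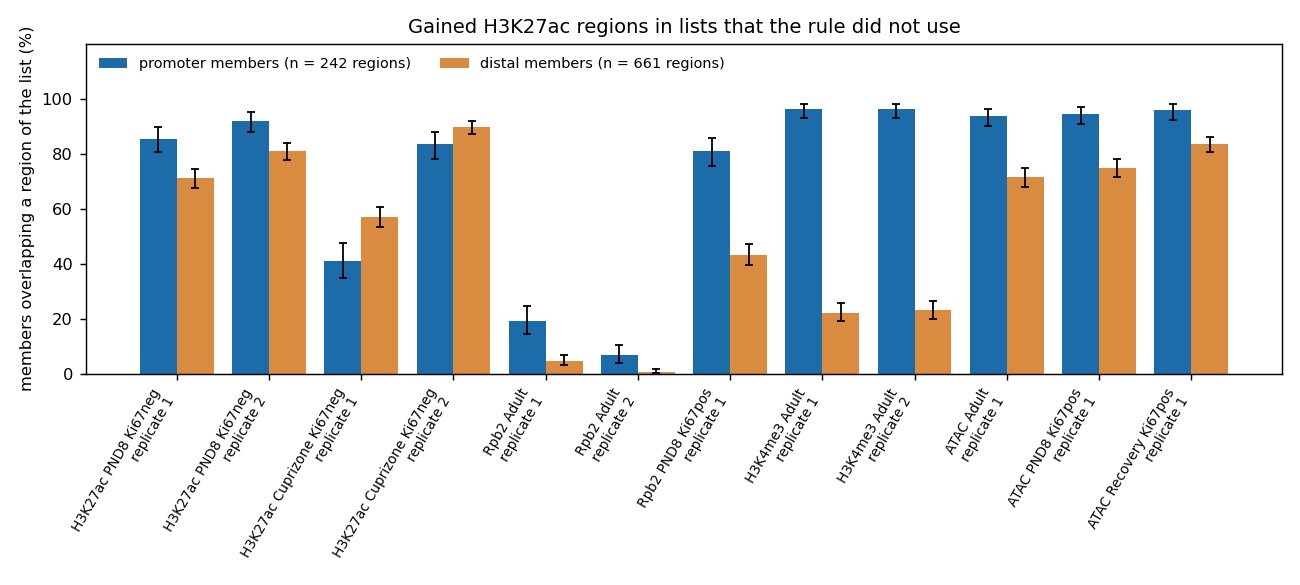
Share of the 242 gained promoters and 661 gained distal regions (y axis, percent) that overlapped a region in each of the 12 lists the rule did not use (x axis), with exact 95% binomial intervals that cover counting error only. Gained promoters stand at 96.3% in the adult H3K4me3 lists and at 6.61% and 19.0% in the adult Rpb2 lists, against 81.0% in the PND8 Rpb2 list.

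The 4 gained promoters absent from every Ki67-negative list were those of Esco2, Id1, Acot11 and Ccdc116. Esco2 is an acetyltransferase that establishes cohesion of sister chromatids in S phase, and Id1 is an inhibitor of basic helix-loop-helix factors. RNA of Esco2 was 1.16 and 1.83 CPM in adult cells, where CPM are counts scaled to the size of the library. It was 27.2 and 35.1 in PND8 Ki67-negative and 41.4 and 37.7 in PND8 Ki67-positive cells, and 30.1 and 44.2, then 37.0 and 46.1, in the same groups of Recovery. Every sorted library was above both adult libraries, and the Ki67-negative and Ki67-positive ranges of Recovery overlapped. Its log2 fold change was 4.72 (SE 0.294) at PND8 and 4.79 (SE 0.295) in Recovery against adult, with edgeR adjusted p of 3.2e-08 and 3.5e-08. The test between Ki67-positive and Ki67-negative cells gave 0.34 at PND8 (adjusted p = 0.366) and 0.17 in Recovery (adjusted p = 0.745). Esco2 RNA was thus present in Ki67-negative cells of reporter mice, and no H3K27ac region was listed at its promoter in Ki67-negative cells of wild-type mice. These assays used different mice, and Ki67-negative cells of Recovery had no H3K27ac list.

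Most gained promoters carried H3K4me3 and open chromatin in adult cells, as did most of the 9349 promoter regions of the whole list. Of the 242, 233 (96.3%) overlapped an H3K4me3 region in both adult lists, and 93.8% overlapped an adult ATAC-seq region, where both shares were 97.4% over the 9349. The ATAC-seq shares at PND8 and in Recovery were 94.6% and 95.9%. Rpb2 differed from these marks. It was listed at 46 (19.0%) and 16 (6.61%) gained promoters in the 2 adult lists and at 196 (81.0%) in the PND8 Ki67-positive list. At 147 (60.7%) it was listed at PND8 and in neither adult list, against 18.3% of the 9349 promoter regions. The adult Rpb2 lists held 14550 and 10544 regions and the PND8 list 31602, so the lists differ in size, and with 1 PND8 library there was no replicate. The PND8 Rpb2 list was also called against an input made for H3K27ac. Promoters marked by H3K27ac in all 6 Ki67-positive and both adult lists (7290 regions) had Rpb2 in 84.7% and 74.1% in adult and in 97.7% at PND8, and only 9.70% had it at PND8 alone. Promoters absent from adult and in some of the Ki67-positive lists had adult Rpb2 in 11.7% and 5.97% and PND8 Rpb2 in 66.9%. Of these, 53.1% had it at PND8 and in neither adult list, so this trait was not particular to gained promoters. At 168 gained promoters (69.4%) the adult cells had H3K4me3 and an ATAC-seq region without Rpb2 in either list. The same held for 19.8% of the 9349 promoter regions, and for 62.1% of those absent from adult and in some of the Ki67-positive lists.

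The same lists were read at promoters of genes whose RNA differed by Ki67. Of the 28 gained promoters whose gene had higher RNA in Ki67-positive cells both at PND8 and in Recovery, all 28 had Rpb2 at PND8, with an exact 95% interval from 87.7% to 100%. The other 214 had it in 168 cases (78.5%). In the 2 adult Rpb2 lists the shares were 14.3% and 7.14% of the 28 and 19.6% and 6.54% of the others. In the cuprizone Ki67-negative lists, 5 of the 28 (17.9%, interval 6.06% to 36.9%) were marked by H3K27ac in replicate 1 and 18 (64.3%, interval 44.1% to 81.4%) in replicate 2. The other 214 were marked in 43.9% and 86.0%. At PND8 the Ki67-negative lists held 89.3% and 96.4% of the 28, and 85.0% and 91.6% of the rest. These shares were not tested, since regions of 1 library are not replicates.

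The promoter of Cdk1, the kinase that drives entry into mitosis, had the highest tag value of the listed cell cycle promoters in both PND8 Ki67-positive lists. It lay at chr10:69350573-69353171 and covered the TSS. Its normalised tag values were 550.3 and 541.3 at PND8, 248.8 and 372.3 in cuprizone, and 320.3 and 342.8 in Recovery, all Ki67-positive. In Ki67-negative cells they were 415.3 and 323.3 at PND8 and 92.4 and 171.6 in cuprizone. Within its lists the region ranked from percentile 72.8 to 94.5 in the Ki67-positive lists and from 39.6 to 89.4 in the Ki67-negative lists. At PND8 the ranks were 94.5 and 93.4 in Ki67-positive against 89.4 and 86.9 in Ki67-negative lists. In cuprizone they were 72.8 and 82.3 against 39.6 and 60.2. The ranks thus overlapped across contexts but not within either, an order that choosing regions by the Ki67-positive lists favours.

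At Mki67 (chr7:135715217-135716582) the tag values were 309.7, 332.2, 142.4, 260.0, 246.8 and 307.5 over the PND8, Cuprizone and Recovery Ki67-positive lists. They were 117.3 and 131.5 in PND8 Ki67-negative cells and 67.6 in Cuprizone Ki67-negative replicate 2, and replicate 1 listed no region. At Ccnb2 (chr9:70420271-70422423), which encodes cyclin B2, a partner of Cdk1, the values were 196.0, 186.8, 32.8, 57.5, 122.5 and 84.5. The PND8 Ki67-negative lists gave 23.5 and 24.4, and neither cuprizone Ki67-negative list had a region. Nek2, a kinase that separates centrosomes, showed the same order at chr1:191821044-191822364, with PND8 values of 196.0 and 197.5 against 27.6 and 11.5 for Ki67-positive against Ki67-negative cells. All 3 ranked higher in Ki67-positive than in Ki67-negative lists at PND8, an order that choosing regions by the Ki67-positive lists favours.

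At PND8, 6 of the 7 S phase promoters had higher tag values in both Ki67-positive lists than in both Ki67-negative lists. The rule asked for a region in each Ki67-positive list and made no demand on the Ki67-negative lists, so it favours this order. At Mcm6 the values overlapped, with 62.7 and 80.5 against 45.4 and 81.4. At Mcm2 (chr6:88897910-88899058), a subunit of the replicative helicase, the tag values were 178.4 and 206.1 at PND8 in Ki67-positive cells, against 109.7 and 131.0 for Ki67-negative ones. They were 57.8 and 104.9 in Cuprizone Ki67-positive, 43.0 and 56.5 in Cuprizone Ki67-negative, and 94.4 and 141.2 in Recovery cells. At Dscc1, which helps load the replication clamp, Ki67-positive PND8 lists gave 183.3 and 201.5, and Ki67-negative ones 157.1 and 134.3. At Uhrf1 (chr17:56302361-56305053), which brings DNA methyltransferase to replicated DNA, the same lists gave 344.5 and 361.5 against 119.4 and 132.4. The gap was wider at Uhrf1 than at Mcm2 or Dscc1. The heat map of ranks shows all 22 listed genes.

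**Figure D2:**
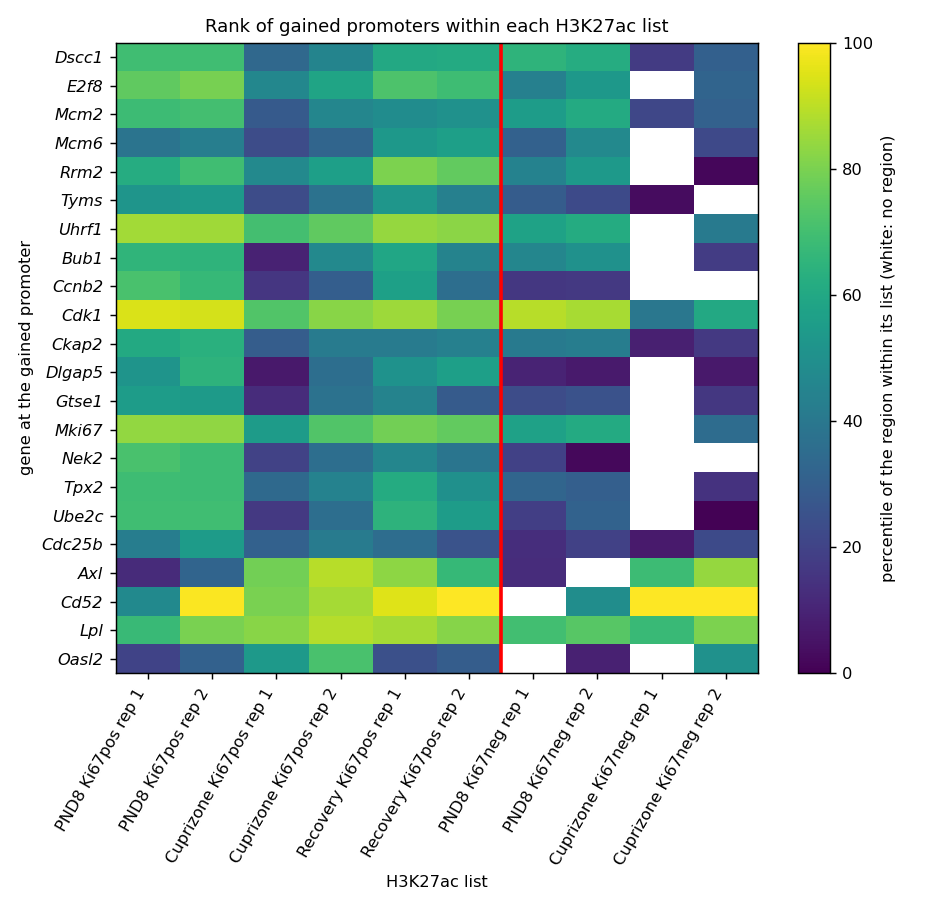
Percentile of the gained promoter (colour, 0 to 100, by the authors' tag value within each list) for 22 genes of the cell cycle, disease-associated and interferon lists (rows) in the 6 Ki67-positive lists left of the red line and the 4 Ki67-negative lists right of it (columns), white where no region was listed. Cdk1 ranks from 72.8 to 94.5 left of the line, and Axl ranks at 12.4 and 32.3 at PND8 against 78.6 and 89.2 in cuprizone.

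The gene lists place these promoters among genes that mostly already had an H3K27ac region in adult cells. Of the 44 S phase genes, 31 had an adult region at the promoter, and of the 55 G2/M genes, 39. The gained S phase genes were Dscc1, E2f8, Mcm2, Mcm6, Rrm2, Tyms and Uhrf1. The gained G2/M genes were Bub1, Ccnb2, Cdk1, Ckap2, Dlgap5, Gtse1, Mki67, Nek2, Tpx2 and Ube2c. Of 29 cell cycle regulators, 2 were gained, Cdc25b and E2f8. Of 27 genes of disease-associated microglia, 3 were gained, Axl, Cd52 and Lpl, and of 27 interferon response genes, 1, Oasl2. All 24 homeostatic microglia genes had an adult region, and 0 of 24 were gained. None of the 20 microglial lineage factors was gained, nor any marker of border macrophages, monocytes or neutrophils, lymphocytes, neurons, astrocytes, oligodendrocytes, endothelium or erythroid cells. Across the count table, 261 of 20999 genes (1.24%) had a gained promoter and 46.5% an adult region.

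RNA gives a readout that the rule did not use. Of the 261 genes at gained promoters, 248 passed the filter on low counts and were tested. The 13 others reached at most 1.58 CPM in any library, and 1 of them had no count at all. RNA libraries held 6865903 to 10287876 counts. In PND8 Ki67-positive cells, 128 of the 248 (51.6%) were higher than in adult cells and 20 (8.06%) lower, where 25.1% and 24.3% of all 12230 tested genes were called (edgeR, adjusted p under 0.05). In Recovery Ki67-positive cells, 133 (53.6%) were higher and 17 (6.85%) lower, against 23.9% and 21.0% of all genes. The median log2 fold change of the 248 genes was 0.53 and 0.65 in these 2 comparisons, against 0.00 and -0.01 over all genes. It was the same with the 4 genes at or under 3 counts in both adult libraries set at their bound. Promoters absent from adult and in some of the Ki67-positive lists had 453 other tested genes. Of these, 40.6% were higher and 14.1% lower at PND8 (median 0.44), and 33.8% and 15.7% in Recovery (median 0.16), in Ki67-positive cells. Since genes low in adult passed the filter only through other groups, 19 tested genes with under 1 CPM in both adult libraries had to be higher.

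Ki67-negative cells showed nearly the same counts against adult. At PND8, 126 genes (50.8%) were higher and 23 (9.27%) lower in Ki67-negative cells, where 25.4% and 21.4% of all genes were called. In Recovery Ki67-negative cells, 126 (50.8%) were higher and 18 (7.26%) lower, where 21.5% and 17.6% of all genes were called. The 453 genes at promoters in some of the Ki67-positive lists were higher in 43.0% at PND8 and 31.1% in Recovery. All 4 comparisons share the 2 adult libraries. Higher RNA in both Ki67-positive groups was called for 111 genes (44.8%, against 16.3% of all genes), and lower RNA in both for 7 (2.82%, against 12.7%). Of the 111, 95 were called higher in both groups of Ki67-negative cells as well. For 62 of the 111 neither the PND8 nor the Recovery test between Ki67-positive and Ki67-negative cells was passed. In none of the 111 did an adult library reach any Ki67-positive library. Among the 230 genes outside the cell cycle lists, 47.8% and 50.0% were higher in the 2 Ki67-positive groups. These 230 still include genes of cell division, such as Cit, Diaph3 and Racgap1, so the shares are not free of such genes.

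Within a context, fewer genes separated Ki67-positive from Ki67-negative cells. At PND8, 39 of 248 (15.7%) were higher in Ki67-positive cells and 18 (7.26%) lower, against 2.75% and 3.15% of all genes. In Recovery, 30 (12.1%) were higher and 1 (0.403%) lower, against 1.87% and 0.867%. The 1 lower gene was Fancg, a member of the Fanconi anaemia core complex. In both contexts 28 were higher (11.3%, against 1.56% of all genes), and all 28 are among the 111 above. Outside the cell cycle lists the shares higher in Ki67-positive cells were 12.2% and 8.26% of 230 genes, which still include genes of cell division. A test of whether the Ki67 difference itself differed between Recovery and PND8 gave 0 genes by edgeR at an adjusted p under 0.05, and 16 of 248 (6.45%) at an unadjusted p under 0.05, against 5.01% of all genes. The bar plot of called genes sets these shares beside those of all genes.

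**Figure D3:**
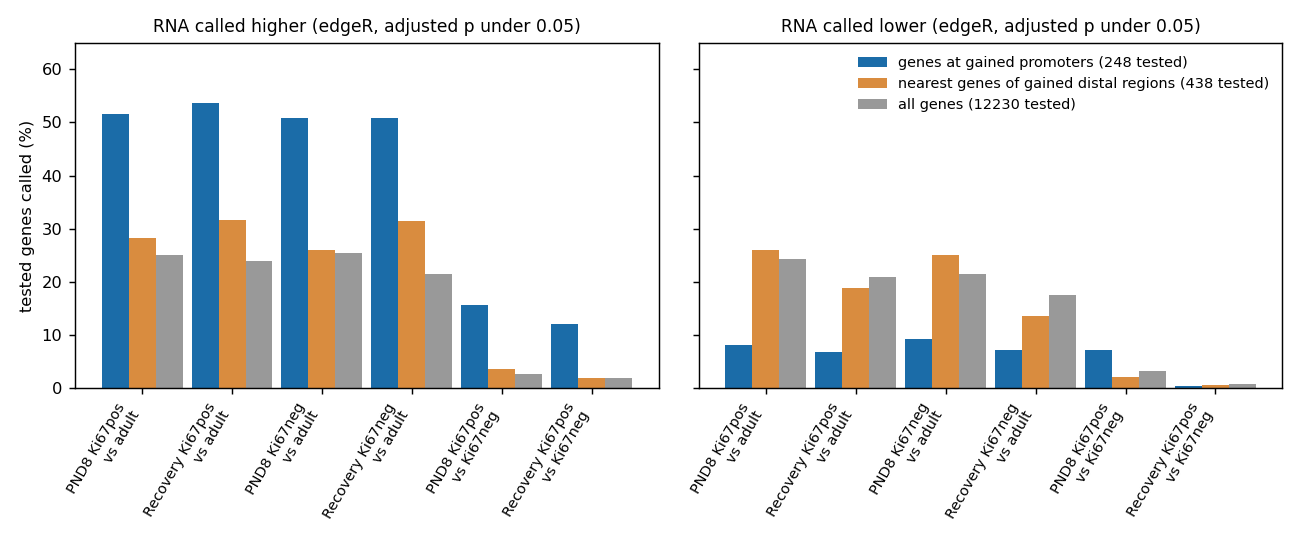
Share of tested genes (y axis, percent) called higher (left) or lower (right) in 6 RNA comparisons (x axis) for the 248 genes at gained promoters, the 438 nearest genes of gained distal regions and all 12230 tested genes. Genes at gained promoters stand at 51.6% and 53.6% higher in the 2 Ki67-positive groups against adult, where all genes stand at 25.1% and 23.9%.

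All 10 G2/M genes with a gained promoter were higher than in adult cells in all 4 sorted groups, and exceeded their Ki67-negative level in the Ki67-positive cells of each context. Their median log2 fold change was 6.53 at PND8 and 6.31 in Recovery for Ki67-positive cells against adult, and 4.48 in both contexts for Ki67-negative cells. Between Ki67-positive and Ki67-negative cells it was 1.93 and 1.65. The 39 G2/M genes whose promoter had an adult H3K27ac region also moved, with medians of 4.62 and 4.47 against adult, and 37 and 34 of them were higher in Ki67-positive than in Ki67-negative cells. The gained promoters are thus not the only ones of this list with higher RNA.

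Mki67 RNA was 13.4 and 11.0 CPM in adult cells. It was 242 and 282 in PND8 Ki67-negative, 920 and 1107 in PND8 Ki67-positive, 336 and 463 in Recovery Ki67-negative, and 930 and 1087 in Recovery Ki67-positive cells. The 3 levels did not overlap, and cells sorted as Ki67-negative were far above adult. Against adult, PND8 Ki67-positive cells had a log2 fold change of 6.37 (SE 0.198, edgeR adjusted p = 1.4e-10), and Recovery ones 6.36 (SE 0.198, adjusted p = 6.9e-10). Against Ki67-negative cells it was 1.95 (SE 0.149, adjusted p = 9.2e-06) and 1.34 (SE 0.147, adjusted p = 0.000198). Ki67 is what the sort selected, so this last contrast checks the labels.

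Cdk1 RNA was 3.70 and 4.15 CPM in adult, 71.9 and 91.6 in PND8 Ki67-negative, 136 and 145 in PND8 Ki67-positive, 49.2 and 64.3 in Recovery Ki67-negative, and 89.3 and 115 in Recovery Ki67-positive cells. In each context the 2 Ki67-positive libraries were above both Ki67-negative libraries. The difference was 0.78 on the log2 scale at PND8 (SE 0.149, edgeR adjusted p = 0.00674) and 0.85 in Recovery (SE 0.156, adjusted p = 0.00790), the smallest of the 10 in both contexts. Against adult it was 5.16 (SE 0.212, adjusted p = 1.1e-09) and 4.69 (SE 0.214, adjusted p = 3.4e-09).

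Ccnb2 was at 3.24 and 3.18 CPM in adult, 21.9 and 29.5 in PND8 Ki67-negative, 124 and 149 in PND8 Ki67-positive, 19.4 and 23.8 in Recovery Ki67-negative, and 116 and 151 in Recovery Ki67-positive cells. Its Ki67 difference was 2.40 (SE 0.168, edgeR adjusted p = 4.0e-06) and 2.64 (SE 0.175, adjusted p = 2.9e-06). Nek2 rose from 0.694 and 1.10 CPM in adult to 79.1 and 84.1 at PND8 and 59.3 and 74.6 in Recovery Ki67-positive cells. Its Ki67-negative libraries held 6.93 to 15.2 CPM over both contexts. The Ki67 difference of Nek2 was 2.84 (adjusted p = 2.8e-05) and 2.46 (adjusted p = 0.000143). In Ki67-negative cells the difference from adult was 3.01 and 2.73 on the log2 scale for Ccnb2 and 3.65 and 3.74 for Nek2. For Cdk1 it was 4.38 at PND8 and 3.84 in Recovery, the latter close to that of Nek2. The promoters have no adult tag value, so their H3K27ac was not compared with adult in this way.

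Bub1, a kinase of the spindle checkpoint, was at 0.694 and 0.489 CPM in adult, and at 116 and 118 at PND8 and 86.6 and 113 in Recovery in Ki67-positive cells. Tpx2, a factor of spindle assembly, was at 1.27 and 2.57 in adult and at 155 to 202 in the 4 Ki67-positive libraries. Ube2c, the ubiquitin-conjugating enzyme of the anaphase-promoting complex, was at 1.27 and 0.855 in adult and at 97.5 to 120 in them. Dlgap5, Gtse1 and Ckap2, which act at the spindle and its microtubules, held 0.733 to 2.20 CPM in adult and 58.9 to 105 in Ki67-positive libraries. Adult libraries lay below every sorted library for all of these genes.

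All 7 S phase genes with a gained promoter were higher than in adult in all 4 sorted groups, but none passed the test as higher in Ki67-positive than in Ki67-negative cells. Their median log2 fold change against adult was 2.58 and 2.27 in Ki67-positive cells of PND8 and Recovery, against 3.93 and 2.99 for Ki67-negative ones. At PND8, 4 of the 7 were lower in Ki67-positive cells, Dscc1 (-1.59), Mcm6 (-1.07), Mcm2 (-0.87) and Uhrf1 (-0.75, all log2). In Recovery 0 of 7 were called in either direction by edgeR, and 3, Dscc1, Mcm2 and Mcm6, were lower at an unadjusted p under 0.05. Mcm6 was called lower there by DESeq2 (-0.59, adjusted p = 0.0278) and by edgeR with the replicate number as a block (-0.58, adjusted p = 0.00953). With the header code as a term, Mcm2, Mcm6 and Uhrf1 were called lower in Recovery. Of the 31 S phase genes with an adult region at the promoter, 20 were lower in Ki67-positive cells at PND8. Lower RNA at PND8 was therefore also called for S phase genes outside the gained promoters. The authors' tag values at Mcm2, Dscc1 and Uhrf1 were higher in the PND8 Ki67-positive than in the PND8 Ki67-negative lists. That order is favoured by the rule, and at Mcm6 the tag values overlapped.

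Mcm2 RNA was 16.1 and 14.9 CPM in adult, 172 and 169 in PND8 Ki67-negative, 93.4 and 92.5 in PND8 Ki67-positive, 74.6 and 126 in Recovery Ki67-negative, and 56.6 and 86.8 in Recovery Ki67-positive cells. The PND8 groups did not overlap and the Recovery groups did, although in Recovery the Ki67-positive library was lower than the Ki67-negative library of the same replicate number and header code in both cases. The difference at PND8 was -0.87 (SE 0.202, edgeR adjusted p = 0.0206) and in Recovery -0.48 (adjusted p = 0.286, or 0.105 with the replicate block and 0.00195 after adding a header code term). Mcm6, of the same helicase, was at 216 in both PND8 Ki67-negative libraries and at 102 and 103 in the Ki67-positive ones (-1.07, SE 0.168, adjusted p = 0.00173). Rrm2, a subunit of the reductase that makes deoxynucleotides, was at 1.50 and 1.34 CPM in adult and at 89.4 to 158 in all 8 sorted libraries. E2f8, a repressor of the E2F family, was at 4.16 and 4.03 in adult and at 83.7 to 128 in the sorted libraries, with Ki67 differences of -0.02 and -0.03.

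Other genes lower in PND8 Ki67-positive than Ki67-negative cells included the polymerase subunits Pold1, Pold2 and Pole, the checkpoint kinase Chek1 and the E2F partner Tfdp1. With Dscc1, Mcm2, Mcm6, Uhrf1, Fancg, Tcf19, Cchcr1, Ctdspl, Fggy, Gtf2ird1, Pcgf2, Pear1 and Smpdl3a they make up the 18. Fancg alone of these was also lower in Recovery.

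Cdc25b, the phosphatase that activates Cdk1 at the start of mitosis, showed the largest Ki67 difference. Its RNA was 6.25 and 5.74 CPM in adult, 8.29 and 11.6 in PND8 Ki67-negative, 110 and 140 in PND8 Ki67-positive, 10.3 and 11.6 in Recovery Ki67-negative, and 74.8 and 98.6 in Recovery Ki67-positive cells. Ki67-negative cells stayed close to adult, at log2 differences of 0.75 (adjusted p = 0.0206) and 0.86 (adjusted p = 0.0134). Ki67-positive cells exceeded Ki67-negative cells by 3.63 (SE 0.189, edgeR adjusted p = 2.7e-07) and 2.99 (SE 0.192, adjusted p = 2.6e-06). The gene was the first of the 28 by mean difference, followed by Tnfaip8l1, Sapcd2, Nek2, Ccnb2, Fam83d, Ckap2 and Cdkn3. In Recovery alone the difference was larger for Tnfaip8l1, at 3.75.

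Tnfaip8l1 was at 0.347 and 0.489 CPM in adult, at 0.104 to 1.36 in the 4 Ki67-negative libraries, and at 6.94 and 10.9 at PND8 and 6.82 and 5.47 in Recovery Ki67-positive cells. Fam83d, which positions the spindle, was at 0 and 0.489 CPM in adult and at 39.9 and 49.2 at PND8 and 30.4 and 38.0 in Recovery Ki67-positive cells. Sapcd2, which bears on spindle orientation, was at 0 and 0.611 in adult, 46.6 and 52.5 at PND8 and 16.4 and 25.0 in Recovery Ki67-positive cells. Its Ki67-negative libraries held 2.08 to 6.79 CPM. Cdkn3, a phosphatase of cyclin-dependent kinases, Depdc1a and Cenpw, a protein of the inner kinetochore, had at most 1 count in any adult library. Their Ki67-positive libraries held 18.5 to 27.2, 12.5 to 15.5 and 6.13 to 7.74 CPM. No fold change is given for these, since the adult level is near 0.

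The remaining genes of the 12 with the largest difference from adult were Ankle1 and Kif18b, beside Bub1, Dlgap5, Ube2c, Tpx2 and Ckap2. Kif18b, a kinesin of mitotic microtubules, was at 1.16 and 1.47 CPM in adult, 132 and 138 at PND8 and 82.0 and 104 in Recovery Ki67-positive cells. Ankle1, an endonuclease, was at 0.463 and 1.71 in adult and at 93.0 to 125 in Ki67-positive libraries. Of the 28 genes with this difference in both contexts, 11 are in the cell cycle lists. The other 17 are Ankle1, Cdkn3, Cit, Depdc1a, Diaph3, Fam83d, Kif18b, Pbk, Pimreg, Racgap1, Rdh11, Sapcd2, Sh3bgrl, Shcbp1, Tnfaip8l1, Uevld and Xkr5. Cit, Diaph3 and Racgap1 act in cytokinesis.

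Axl, Cd52, Lpl and Oasl2, the genes of the disease-associated and interferon lists with a gained promoter, differed between PND8 and Recovery, and for none was the test between Ki67-positive and Ki67-negative cells passed. Axl, a receptor kinase for the clearance of dying cells, was at 37.0 and 41.9 CPM in adult, 78.8 and 140 in PND8 Ki67-negative, 99.8 and 142 in PND8 Ki67-positive, 471 and 561 in Recovery Ki67-negative, and 392 and 470 in Recovery Ki67-positive cells. All 4 Recovery libraries were above all 4 PND8 libraries. PND8 Ki67-positive cells exceeded adult by 1.61 on the log2 scale (SE 0.234, edgeR adjusted p = 8.4e-05) and Recovery ones by 3.45 (SE 0.238, adjusted p = 1.0e-07), and the test between these 2 groups gave 1.83 (SE 0.215, adjusted p = 2.7e-05). Between Ki67-positive and Ki67-negative cells it was 0.13 (adjusted p = 0.796) and -0.26 (adjusted p = 0.602).

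The H3K27ac region at the Axl promoter (chr7:25788257-25789022) had tag values of 19.6 and 53.2 at PND8, 302.6 and 506.8 in cuprizone and 291.6 and 231.3 in Recovery Ki67-positive lists. In Ki67-negative lists it had 19.9 in PND8 replicate 1, no region in replicate 2, and 236.4 and 427.9 in cuprizone. It ranked at percentiles 12.4 and 32.3 at PND8 and at 66.9 to 89.2 in the 4 other Ki67-positive lists. No Rpb2 region was listed there in any of the 3 lists.

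Lpl, lipoprotein lipase, showed the other order in RNA. It was at 48.5 and 46.3 CPM in adult, 347 and 512 in PND8 Ki67-negative, 381 and 557 in PND8 Ki67-positive, 125 and 157 in Recovery Ki67-negative, and 124 and 167 in Recovery Ki67-positive cells. PND8 libraries were the highest and adult libraries the lowest. PND8 Ki67-positive cells exceeded adult by 3.31 on the log2 scale (SE 0.224, edgeR adjusted p = 7.5e-08) and Recovery ones by 1.61 (SE 0.221, adjusted p = 6.0e-05), and Recovery was below PND8 by -1.69 (SE 0.205, adjusted p = 3.6e-05). Its Ki67 differences were 0.13 (adjusted p = 0.790) and 0.05 (adjusted p = 0.950) by edgeR. Its promoter region (chr8:68880136-68882421) had tag values of 172.5, 291.6, 348.6, 501.5, 337.0 and 378.6 in the Ki67-positive lists and 185.2 to 363.4 in all 4 Ki67-negative lists. Another 2 gained regions had Lpl as nearest gene and lay at chr8:68915038-68915538 and chr8:68952936-68955380, the second 496 bp from an adult region.

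Oasl2, an interferon-induced protein, was at 9.37 and 12.2 CPM in adult, 17.1 to 23.8 in the 4 PND8 libraries and 121 to 137 in the 4 Recovery libraries. Its difference from adult in Ki67-positive cells was 0.98 (edgeR adjusted p = 0.000465) at PND8 and 3.48 (adjusted p = 3.8e-09) in Recovery, and the Recovery group exceeded the PND8 group with no overlap (SE of the log2 difference 0.150, adjusted p = 4.7e-08). The Ki67 differences of Oasl2 were 0.12 (adjusted p = 0.752) and -0.11 (adjusted p = 0.761). Cd52, a surface glycopeptide of leukocytes, was at 40.4 and 47.9 in adult, 56.6 to 66.3 at PND8 and 122 to 151 in Recovery, with a difference between these Ki67-positive groups of 1.10 (edgeR adjusted p = 2.6e-05). For Cd52 the Ki67 differences were 0.11 (adjusted p = 0.713) and 0.03 (adjusted p = 0.954). Its promoter region (chr4:134094397-134094897) lay 953 bp from an adult region. The plot of RNA levels shows these genes beside those of the cell cycle.

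**Figure D4:**
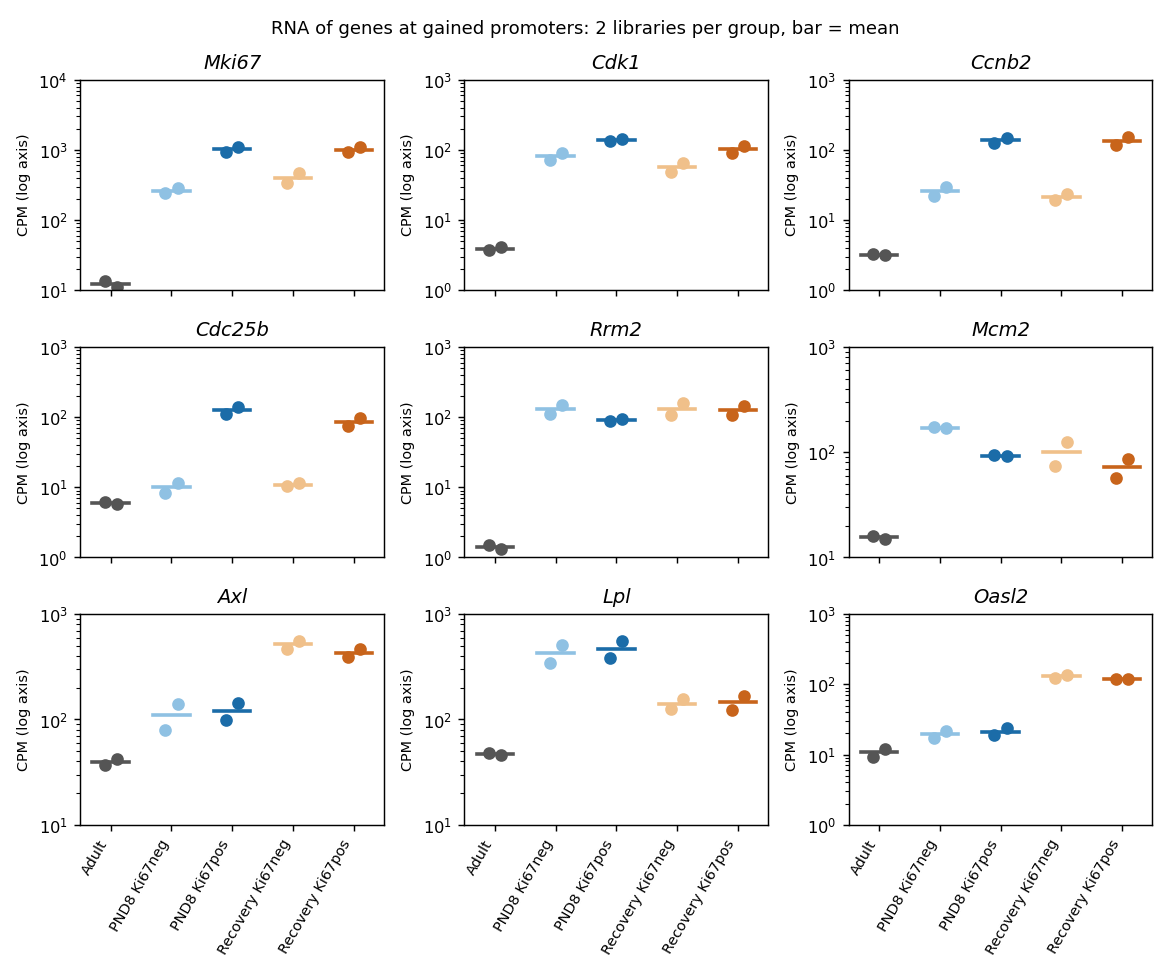
RNA of 9 genes at gained promoters in CPM (y axis, log scale) in the 5 RNA groups (x axis), each point 1 of 2 libraries and each bar the mean. Mki67, Cdk1, Ccnb2 and Cdc25b are higher in Ki67-positive than in Ki67-negative cells, Mcm2 is lower at PND8, and Axl and Oasl2 are highest in both Recovery groups.

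Across the 248 genes, 41 (16.5%) were higher and 37 (14.9%) lower in Recovery than in PND8 Ki67-positive cells, close to the 16.7% and 14.2% of all genes. The genes with the largest rise were Ch25h, which makes 25-hydroxycholesterol (4.75), Cyp4f18 (4.07), Cfp, the complement factor properdin (4.02), Mcub (3.78), Fxyd5 (3.11) and Ifi207 (3.10, all log2). They were chosen after their values were seen. Ch25h was at 1.73 and 1.71 CPM in adult, 0 to 1.32 at PND8 and 22.4 to 43.6 in Recovery. Cfp was at 6.13 and 7.70 in adult, 4.74 to 7.60 at PND8 and 75.8 to 112 in Recovery. For both the PND8 difference from adult missed the threshold, at -0.76 (adjusted p = 0.374) and -0.16 (adjusted p = 0.655), although the promoters were marked at PND8. Ccdc85c, Oas1b and Smpdl3a were called in opposite directions against adult in the 2 contexts.

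Summed markers of other cells differed between these groups. Summed CPM of 10 microglia markers was 7638 to 9904 over all libraries. Erythroid markers summed to 23.3 to 77.0 at PND8 and to 0.416 to 7.45 elsewhere. Border macrophage markers summed to 1418 to 1529 in adult, 1928 to 2312 at PND8 and 857 to 1101 in Recovery, where Ki67-positive libraries were at 857 and 904. Astrocyte markers summed to 241 and 249 in adult, 62.2 to 431 at PND8, 504 and 568 in Recovery Ki67-negative and 411 and 421 in Recovery Ki67-positive libraries. Endothelial markers were at 84.6 to 92.1 in adult and PND8 Ki67-negative libraries, 65.5 and 72.1 in Recovery Ki67-negative, and 54.0 to 55.3 and 46.3 to 47.2 in PND8 and Recovery Ki67-positive ones. Monocyte or neutrophil markers were at 80.2 and 257 in adult, 21.8 to 40.0 at PND8, 76.3 and 80.6 in Recovery Ki67-negative and 133 and 168 in Recovery Ki67-positive libraries. Lymphocyte markers summed to 47.5 to 56.0 at PND8 and 17.3 to 25.2 elsewhere, neuron markers to 2.16 to 12.8 and oligodendrocyte markers to 160 to 249 over all libraries. The part of these cells in the differences was not tested, and in bulk samples a change in the number of cells of a kind cannot be told apart from a change in RNA per cell.

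Few genes at gained promoters had lower RNA. The 5 with the largest fall in both Ki67-positive groups were Iqck, Mblac2, Zfp30, Zfp354a and Knop1. Iqck fell from 2.43 and 1.71 CPM in adult to 0.220 and 0.809 at PND8 and 0.116 and 0.432 in Recovery. Zfp30, a zinc finger protein, was at 17.6 and 13.6 in adult, 11.1 and 8.78 at PND8 and 7.52 and 7.77 in Recovery. Mblac2 dropped from 19.4 and 21.4 to 9.69 and 11.2 at PND8, and to 12.3 and 8.64 in Recovery, with no overlap.

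Of the 248 genes, 52 were called in none of the 4 comparisons with adult. The share of all 12230 tested genes called in none of the 4 was not counted, so this number has no background. The 5 of highest CPM among those called in neither Ki67-positive group were Ppfia4, Cpsf1, Slc7a5, Zmpste24 and Mrps25. Ppfia4, a liprin, was at 416 and 401 CPM in adult, 351 and 374 at PND8 and 454 and 456 in Recovery Ki67-positive cells (-0.17 and 0.15 on the log2 scale). Cpsf1, a subunit of the factor that cleaves pre-mRNA, was at 193 and 210 in adult, 203 and 200 at PND8 and 173 and 180 in Recovery. Levels compared per length give genes at gained promoters a low place. Their median TPM was 4.86 and 5.10 in adult and 10.4 to 13.7 in the other libraries. For 8242 genes at promoters in all 6 Ki67-positive and both adult lists it was 30.7 to 34.0.

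RNA calls are given here by the other lists at the promoter. Where Rpb2 was listed at PND8 and not in adult (150 tested genes), 54.7% and 57.3% were higher in the 2 Ki67-positive groups than in adult, and 20.0% and 17.3% were higher in Ki67-positive than in Ki67-negative cells. Where an adult list had Rpb2 (55 genes), the shares were 50.9% and 49.1%, and 14.5% and 7.27%. Where no list had Rpb2 (43 genes), they were 41.9% and 46.5%, and 2.33% and 0%. Genes whose promoter was in at most 2 Ki67-negative lists (56 genes) were higher than in adult in 66.1% and 67.9%. For promoters in all 4 Ki67-negative lists (90 genes) the shares were 44.4% and 40.0%. Differences between these subsets were not tested.

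Most gained distal regions lay in open chromatin already listed in adult, and fewer of them than of gained promoters had Rpb2 or H3K4me3 listed. Over all 17613 distal regions of the first list, 84.3% had an adult ATAC-seq region, 56.9% had PND8 Rpb2 and 22.3% had H3K4me3 in both adult lists. Their median distance to a TSS was 28.9 kb, with 135 of 661 within 10 kb and 99 over 100 kb away. ATAC-seq regions were listed at 71.4% in adult, 74.9% at PND8 and 83.5% in Recovery, and 54 (8.17%) had one at PND8 and in Recovery but not in adult. This last trait was found in 2.90% of all 17613 distal regions. It was found in 9.27% of distal regions absent from adult and in some of the Ki67-positive lists. The trait was therefore not particular to gained distal regions. Among gained distal regions, Rpb2 was at 4.69% and 0.605% in adult and 43.3% at PND8, and H3K4me3 was in both adult lists at 19.7%. The adult Rpb2 shares were 23.1% and 12.2% over all 17613 distal regions. They were 2.14% and 0.279% for distal regions absent from adult and in some of the Ki67-positive lists. No ATAC-seq list had a region at 86 of the 661. The same held for 1682 (9.55%) of all 17613 distal regions. It held for 25.5% of distal regions absent from adult and in some of the Ki67-positive lists.

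RNA of the nearest genes of gained distal regions stayed near the background. Within 100 kb there were 506 such genes without a gained promoter, of which 438 were tested. Against adult, 28.3% were higher and 26.0% lower in PND8 Ki67-positive cells, and 31.7% and 18.9% in Recovery. Higher RNA in Ki67-positive than in Ki67-negative cells was called for 3.65% at PND8 and 1.83% in Recovery. These are close to the shares of all genes given above, apart from the higher share in Recovery against adult. The nearest gene need not be the gene a region acts on.

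Among the 10 distal regions of highest mean percentile, 5 lay within 1 kb of an adult region, with distances from 383 to 959 bp. They were nearest to Taf11, Rhof, Rab1a, Aldh4a1, Tspan14, Rab7b, Tec, Foxs1, Slc38a2 and Pmaip1. The region near Slc38a2, a transporter of neutral amino acids, was the longest of all gained regions at 3493 bp (chr15:96742491-96745984) and lay 11114 bp from an adult region. It ranked from percentile 65.6 to 88.3 in the Ki67-positive lists and from 29.7 to 71.8 in the Ki67-negative lists, with Rpb2 at PND8. The region near Foxs1 (chr2:152926921-152928798) lay 86185 bp from an adult region and 4410 bp from the TSS. It ranked from 57.2 to 87.9 in the Ki67-positive lists and had ATAC-seq regions at PND8 and in Recovery but not in adult.

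Rab7b, a small GTPase of late endosomes, had 1 gained promoter and 2 gained distal regions. The distal region at chr1:131690056-131691437 had tag values of 46.6 and 87.6 at PND8, 661.0 and 759.9 in cuprizone and 731.4 and 887.3 in Recovery Ki67-positive lists. In Ki67-negative cells it had 119.4 and 61.6 at PND8 and 350.3 and 492.0 in cuprizone. In cuprizone and Recovery it is part of the same listed region as the promoter, so those values are shared. The tag values were higher in cuprizone and Recovery lists than at PND8, with no overlap. They belong to listed regions of different extent, so this difference cannot be told apart from the joining with the promoter. RNA of Rab7b was 2.08 and 2.93 CPM in adult, 3.47 to 16.3 at PND8 and 38.8 to 66.4 in Recovery.

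Clic4, a chloride channel family protein, had 4 gained distal regions within 100 kb and no gained promoter, the most of any gene. One lay at chr4:135238788-135240496, 726 bp from an adult region. Clic4 RNA was 22.8 and 22.7 CPM in adult, 55.7 to 65.2 in the 4 Ki67-negative libraries, 81.4 and 92.6 in PND8 Ki67-positive, and 82.0 and 91.0 in Recovery Ki67-positive cells. In each context the Ki67-positive libraries were the highest and the adult libraries the lowest. The differences of Ki67-positive from adult were 1.93 (SE 0.114, edgeR adjusted p = 2.0e-08) and 1.92 (SE 0.115, adjusted p = 2.7e-08), and from Ki67-negative cells 0.63 (adjusted p = 0.00268) and 0.44 (adjusted p = 0.0408). Fxyd5, a regulator of the sodium pump, had 1 gained promoter and 2 gained distal regions, and RNA of 4.86 and 8.31 CPM in adult, 8.29 to 16.4 at PND8 and 116 to 145 in Recovery.

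Of the 27 gained regions absent from every Ki67-negative list, 23 were distal. The 10 of highest percentile were nearest to Taf11, Foxs1, Hist2h2aa1, Fbxw11, Nrarp, Gsdmc, H2-Ab1, Esco2, Id1 and Nav2, of which Esco2 and Id1 are promoters. The region near Taf11 (chr17:27907163-27908093) lay 1149 bp from the TSS and 444 bp from an adult region, with tag values of 147.5, 1140.8, 764.1, 1031.5, 902.8 and 964.4. The Foxs1 region of this set (chr2:152925179-152926202) shares its cuprizone and Recovery regions with the other Foxs1 region. Near H2-Ab1, which encodes a chain of MHC class II, chr17:34264699-34265199 was listed in no Ki67-negative library. RNA of H2-Ab1 was 21.2 and 29.3 CPM in adult, 2.97 to 10.4 at PND8 and 27.9 to 38.1 in Recovery, and showed no excess in sorted cells at PND8.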

How the data were processed

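Microglia of male mice were profiled by RNA-seq (10 libraries in 5 groups) and by peak lists for H3K27ac (12), Rpb2 (3), H3K4me3 (2) and ATAC-seq (3). Samples were grouped by the labels alone. Per the submitters' processing notes, STAR 2.7.0f, Bowtie2 2.3.4.1, HOMER 4.11 and DESeq2 were used with mm10 or GRCm38. Per the file headers, the authors called HOMER peaks in each library separately, ATAC-seq without input and the PND8 Rpb2 list against an H3K27ac input. Each region carries a signal value, the authors' tag count scaled to a fixed library total, which served to describe and rank regions within a list. The score deposited with each region, from HOMER, served only as a filter in 2 alternatives. The deposited RNA values are HOMER counts of reads over exons with 1 transcript per gene and at most 3 tags per position, per the file headers. The strand used in counting is not given in the sources used here, so overlapping genes cannot be told apart. The deposited TPM values were used for levels between genes and for alternatives. No column of another sample was used. The labels state independent biological replicates for RNA. For the peak lists the labels do not say so, and spread there may be technical.

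Regions were intersected in Python 3.11.15 (pandas 2.3.3, numpy 2.4.6). Counts were tested with edgeR 4.0.16 (limma 3.58.1, R 4.3.3) in 1 quasi-likelihood fit over all 10 libraries after filterByExpr and TMM scaling, which left 12230 of 20999 genes, with Benjamini-Hochberg adjustment over all of them. The script was tested on simulated counts. CPM use the TMM-scaled library sizes, and SE is the standard error of the log2 fold change. Exact binomial intervals at 95% are for counts of regions and cover counting error only, since regions of 1 library are not replicates. The median over all genes shifted by at most 0.03 in any comparison.

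The regions and the gene lists were chosen with earlier results of these data known, so no pattern here is independent support for one seen before. Genes named were every listed gene with a gained promoter, the 12 with the largest mean rise and 5 with the largest fall in both Ki67-positive groups, the 5 most abundant called in neither, the 8 with the largest Ki67 difference, and the 10 highest distal regions and regions absent from Ki67-negative lists. Others were named after their values were seen. Alternatives covered the overlap, the first list, peak scores and the TSS window. Each RNA library was left out in turn, as was each H3K27ac library of the rule except PND8 Ki67-positive replicate 1. Other alternatives were DESeq2 1.42.0, its size factors, no filter, limma on log2 TPM, a replicate block, the header codes and the 2 groups alone. RefSeq promoters were matched for 15982 of 20999 genes.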

Additional observations from a re-analysis of the deposited data

Results flagged for a closer look

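The difference from adult differed between Recovery and PND8 Ki67-positive cells for 12 of the 44 tested genes at gained promoters that are on a list or were named by rule. The test was the edgeR test of the difference between these 2 groups, which cancels the shared adult libraries. Over all 12230 tested genes it called 16.7% higher and 14.2% lower in Recovery, so such calls were as common outside these genes. Cdc25b was lower in Recovery by a log2 difference of -0.53 (SE 0.157, adjusted p = 0.0204), Cdk1 by -0.46 (adjusted p = 0.0303), Ckap2 by -0.42 (SE 0.146, adjusted p = 0.0442) and Kif18b by -0.54 (SE 0.183, adjusted p = 0.0400). Sapcd2 was lower by -1.26 (SE 0.349, adjusted p = 0.0143), with no overlap between the 2 Recovery and the 2 PND8 libraries. Ppfia4, called against adult in neither group, was higher in Recovery by 0.33 (SE 0.0782, adjusted p = 0.00670). Higher in Recovery too were Axl (1.83), Cd52 (1.10) and Oasl2 (2.5), and Lpl was lower (-1.69), with the tests given above. Rab7b was higher by 2.02 (adjusted p = 0.00158) and H2-Ab1 by 1.79 (adjusted p = 0.000345).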

How the results depend on the processing

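With only Ki67-positive regions at or above the lower quartile of the authors' score, 203 regions were gained (53 promoters, 150 distal), and 46.8% were in all 4 Ki67-negative lists. RNA higher than adult was then called for 61.1% of genes at gained promoters in each Ki67-positive group and for 68.5% and 63.0% in PND8 and Recovery Ki67-negative cells. With adult regions under that quartile not counted, 2676 were gained (875 and 1801), 62.1% were in all 4 Ki67-negative lists and 1.20% in none, and PND8 Rpb2 lay at 89.1% of promoters and 52.4% of distal regions. Higher RNA was then called for 37.7%, 35.6%, 37.1% and 33.5% in PND8 and Recovery Ki67-positive and then Ki67-negative cells, and in Ki67-positive over Ki67-negative cells for 8.20% and 6.10%. Requiring that at least 0.5 of the region be covered left 425 distal regions. Starting from Cuprizone replicate 1 gave PND8 Rpb2 at 73.8% of promoters, and from PND8 replicate 2 or Recovery replicate 1 at 48.7% and 48.9% of distal regions.

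Leaving out 1 H3K27ac library of the rule gave 943 to 3067 regions, 246 to 827 promoters and 697 to 2240 distal regions, the highest without adult replicate 2. PND8 Ki67-positive replicate 1, whose list supplies the regions, was not left out. The share in all 4 Ki67-negative lists was 29.2% to 62.7%, in none 0.946% to 5.29%, and with PND8 Rpb2 78.6% to 86.2% of promoters and 40.7% to 50.7% of distal regions. Higher RNA ranged over 37.4% to 51.6% and 38.7% to 53.6% in PND8 and Recovery Ki67-positive cells, 36.2% to 50.8% and 35.5% to 50.8% in Ki67-negative cells, and 9.53% to 15.9% and 7.53% to 12% between them. Leaving out 1 RNA library gave 111 to 136, 114 to 140, 108 to 127, 109 to 127, 24 to 45 and 17 to 36 genes in the same order.

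Of the tools, limma moved only the counts between Ki67-positive and Ki67-negative cells, to 16 at PND8 and 6 in Recovery on log2(TPM + 1) without a filter and to 17 in Recovery on log2(TPM + 0.1). DESeq2 called 121, 123, 118, 122, 37 and 32. Libraries share a replicate number across groups, and deviations of same-numbered libraries correlated at 0.338 at PND8 and 0.263 in Recovery between Ki67-negative and Ki67-positive cells and at -0.0084 to 0.0974 otherwise. In both contexts same-numbered libraries also share a header code, but the labels name no shared mouse or day and there are only 2 pairs, so the numbers were not taken as pairs. With the replicate block, counts were 132, 137, 128, 129, 48 and 40, and every gene called without it was kept. Of the 7 S phase genes, the block called 5 lower at PND8 and 1 in Recovery, and the header code called 5 and 3 lower. With the header code as a term, 56 genes were higher at PND8 between Ki67-positive and Ki67-negative cells, and the adult contrasts cannot be told apart from the code. For the 26 genes named by rank of RNA, no test changed direction past its threshold in the settings run. A change of direction was labelled for these genes only. For the 26 named genes, 72 of the tests that left out 1 library and 77 of those under other settings no longer passed. Over all genes, the call between Ki67-positive and Ki67-negative cells ranged from 129 to 680 higher and 58 to 951 lower at PND8 (336 and 385 as reported) and from 52 to 510 and 19 to 488 in Recovery (229 and 106). Requiring a log2 difference of at least 1 against adult left 1178, 1226, 1249 and 1092 genes higher and 900, 601, 664 and 447 lower in PND8 and Recovery Ki67-positive and then Ki67-negative cells.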
